A study of Homo sapiens with 24 samples.

Results

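The glycolysis and hypoxia response genes described here are 37 genes of the 37416 listed for each library, of which 21352 were tested. They comprise 2 glucose transporters, 15 enzymes of the glycolytic chain, 3 enzymes that set its flux, the 2 hypoxia-inducible factors HIF1A and EPAS1, 2 prolyl hydroxylases that mark these factors for destruction, and 13 classical targets of the factors. The members were chosen by name, with earlier results of these data known, so their choice is not independent of the data. Their Ensembl identifiers were matched to symbols in the gene table of the annotation. All 37 were found and all 37 passed the filter on low counts.

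RNA-seq was done on 4 human lines of TNBC (triple-negative breast cancer): BT549, HCC1806, MDAMB231 and MDAMB468. In each line, cells that had received a lentivirus with an ADAR1-directed hairpin (shADAR1) were compared with cells that had received a control hairpin (shNT), with 3 libraries labelled as biological replicates in each of the 8 groups. All groups shared infection for 24 h and selection with puromycin at 2 µg/ml for 72 h, and no label names a low-oxygen treatment. ADAR1, the product of ADAR, is an enzyme that changes adenosine to inosine in double-stranded RNA. The hairpin sequences, and whether shADAR1 is a single hairpin, are not given in the sources used here, so loss of ADAR1 and other effects of the hairpin cannot be told apart.

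Glycolysis turns glucose into pyruvate, and cells that lack oxygen rely on it for ATP. In oxygen, the prolyl hydroxylases EGLN1 and EGLN3 hydroxylate the HIF alpha subunits, which are then ubiquitinated through VHL and degraded. Without oxygen the factors are stable, pair with ARNT and raise the transcription of glucose transporters, nearly every glycolytic enzyme, PDK1, VEGFA, CA9 and others, and many breast tumours keep part of this programme running in oxygen as well.

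Library totals ran from 10370645 to 97218217 counted reads. ADAR itself was lower in shADAR1 in all 4 lines, with no overlap between the arms: its mean was 516 CPM in shNT and 135 in shADAR1 of BT549, 354 and 117 in those of HCC1806, 293 and 63.9 in those of MDAMB231, and 417 and 155 in those of MDAMB468 (log2 fold changes -1.94, -1.59, -2.19 and -1.43, edgeR adjusted p at most 3.18e-05; CPM is read counts scaled to a common library size, here with TMM factors). Vimentin stood at 1930 to 5560 CPM in BT549 and MDAMB231 and at 1.68 to 19.7 CPM in the other lines. EPCAM and CDH1 were at 183 to 317 CPM in HCC1806 and MDAMB468 and at most 10.9 CPM in BT549 and MDAMB231. The keratins KRT8, KRT18 and KRT19 did not follow that split. They were at 410 to 1560 CPM in HCC1806 and MDAMB468, at 196 to 558 CPM in MDAMB231 and at most 0.894 CPM in BT549. The markers of leukocytes (PTPRC, CD3E) were at most 0.801 CPM and of hepatocytes (ALB) at most 0.0531 CPM in every library. Of the endothelial markers, PECAM1 was at 3.92 to 4.89 CPM in MDAMB231 and at most 0.53 CPM in the other lines. CDH5 was at 0.756 to 2.16 CPM in MDAMB468 and at most 0.192 CPM in the other lines. Of the receptors, PGR was at most 0.923 CPM, while ERBB2 was at 69.8 to 118 CPM over the 4 lines. ESR1 was at 18.0 to 26.8 CPM in HCC1806, 5.68 to 8.14 in MDAMB468 and at most 0.844 CPM in the other lines.

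The factors recognise a short core, ACGTG or GCGTG, in DNA. The 250 bases before the first listed RefSeq start (build GRCh38.p14) were available for 33 of the 37 members and were searched for these letters on both strands. At least 1 copy was present in 23 of 33 members (69.7%), against 43.1% of 27303 genes searched in the same way, which include genes not tested here. Members were listed partly as classical targets of the factors, so the difference is a description and not independent support. The members' upstream windows had a median GC content of 70.0%, against 58.0% for all genes, and the part of GC content in that difference was not tested. ACGTG was present in 42.4% of members and 18.7% of all genes, and GCGTG in 42.4% and 31.9%. Some ACGTG matches lie inside the E-box CACGTG, which other factors bind and which 15.2% of members and 6.5% of all genes held. When every listed start was counted, 60.7% of 56 member starts and 43.2% of 35114 starts held either core. The 30 bases with most matches are printed below for 4 members whose values are given for every library later and whose stretch meets no annotated exon, with the cores in capitals (CACGT and CACGC are the same cores on the other strand).
PGK1 (chrX:78104028-78104057, plus strand): cggttcgcgGCGTGccggACGTGacaaacg
PFKFB4 (chr3:48556953-48556982, minus strand): gtgagttgggcatGCGTGgtcggaggccgg
PFKFB3 (chr10:6144740-6144769, plus strand): gggcggcccggccCACGCcccggcttcccc
BNIP3 (chr10:131982034-131982063, minus strand): gcgccgCACGTGccaCACGCacccCACGCc
The printed stretch of BNIP3, a mitophagy receptor, held 4 of its 6 matches, and that of PGK1 held 2 of 3. CACGTG reads the same on both strands and so counts as 2 matches, as in the stretch of BNIP3. TPI1 had no match in its window. A match describes letters and is not a measured binding site.

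In the shNT libraries the chain was most weakly expressed in MDAMB468. Summed over the 15 enzymes, the deposited RPKM (reads scaled to gene length and library size) came to 1342 ± 47.1 in MDAMB468 (SD, n = 3), against 2358 ± 157 in MDAMB231, 2487 ± 106 in HCC1806 and 2500 ± 354 in BT549. The MDAMB468 libraries, at 1300.3 to 1393, did not overlap the others, while the remaining 3 lines overlapped each other. By TMM-scaled CPM, the scale of the tests, MDAMB468 was the lowest of the 4 lines for 10 of the 15 enzymes and for 21 of the 37 members, whereas it was the lowest for 25.5% of all genes tested. MDAMB231 was the highest for 19 of 37 members, against 22.0% of all genes. In bulk libraries such as these, fewer cells of a kind and less RNA per cell cannot be told apart.

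The levels of 35 of the 37 members differed between the lines in the joint test (edgeR quasi-likelihood, adjusted p under 0.05 over all genes), in a setting where 85.9% of all genes did. HK1, the hexokinase of most tissues, and ANKRD37 were the members that did not pass. Taken pair by pair over the 6 pairs of lines, 166 of 222 member comparisons passed (74.8%), against 60.8% for all genes.

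**Figure D1:**
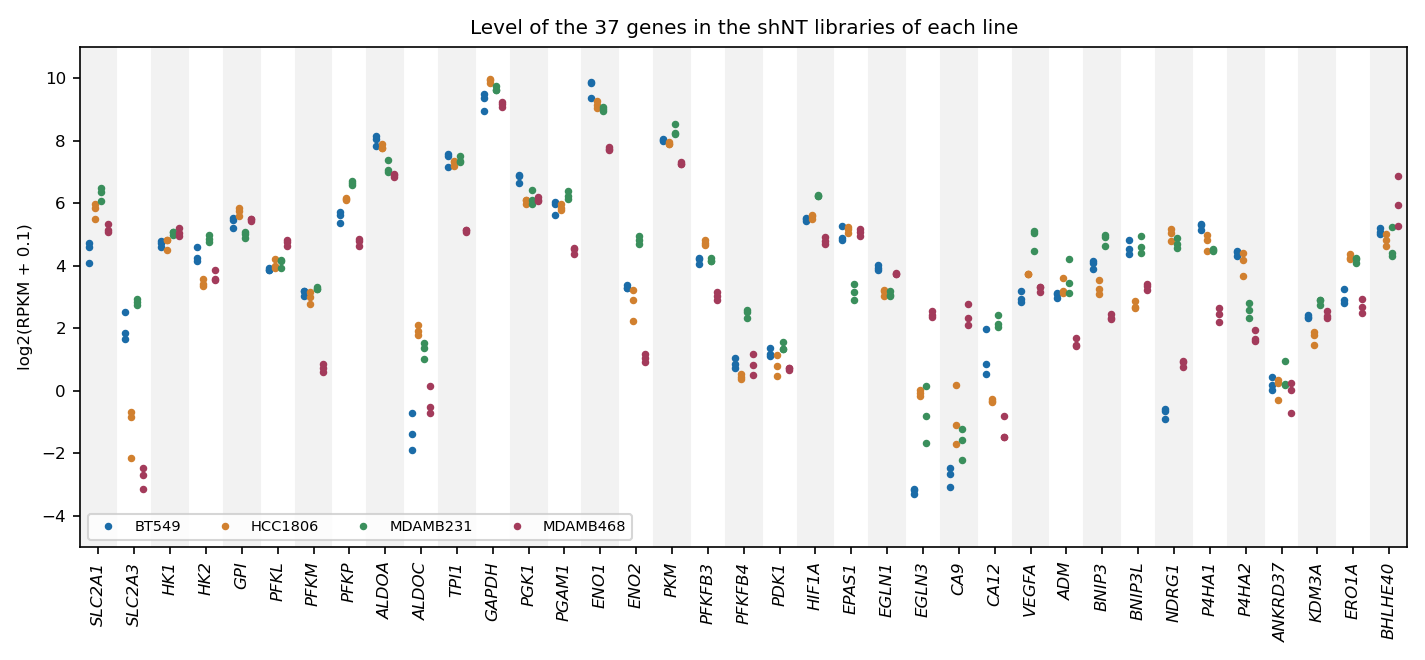
Level of each of the 37 genes in the 3 shNT libraries of each line, as log2(RPKM + 0.1) on the vertical axis, with 1 point per library and the genes in order of role. GAPDH and ENO1 are the highest, the MDAMB468 points lie below those of the other lines for TPI1, PFKM, PGAM1 and ENO1, and EGLN3, SLC2A3, NDRG1 and CA9 spread most between lines.

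Glucose enters through SLC2A1 (GLUT1), which had 79.5 ± 11.6 RPKM in MDAMB231, 54.7 ± 8.71 in HCC1806, 36.4 ± 3.26 in MDAMB468 and 22.5 ± 4.92 in BT549 (n = 3 each), and every neighbouring pair in that order differed (edgeR adjusted p 0.0142 or less). SLC2A3 (GLUT3), a transporter of high affinity known from neurons, was present in MDAMB231 (7.07 ± 0.471 RPKM) and BT549 (4.04 ± 1.36 RPKM), which did not differ by the test (adjusted p 0.119). It was at 0.366 ± 0.213 RPKM in HCC1806 and 0.0483 ± 0.0338 in MDAMB468. SLC2A3 made up 15.9 ± 7.80% of the RPKM of the pair in BT549 and 8.31 ± 1.67% in MDAMB231, and under 1% in the other lines (0.681% and 0.128%).

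Among the enzymes, GAPDH had the highest level per length in HCC1806 (974 ± 44.3 RPKM), MDAMB231 (811 ± 51.2) and MDAMB468 (578 ± 32.6), and ENO1 in BT549 (843 ± 155 RPKM, beside 624 ± 114 for GAPDH). TPI1, which interconverts the 2 triose phosphates made by aldolase, was at 173 ± 26.0 RPKM in BT549, 168 ± 12.7 in MDAMB231 and 156 ± 10.0 in HCC1806, which the test did not separate. In MDAMB468 it was at 34.7 ± 0.728 RPKM, and the difference from HCC1806, the next line, passed (edgeR adjusted p 3.26e-11). PGAM1 and ENO1, which act in the lower chain, were also lowest in MDAMB468, PGAM1 at 22.2 ± 1.53 RPKM against 58.5 to 76.2 elsewhere and ENO1 at 215 ± 5.73 against 514 to 843. PGK1, which precedes them, was not set apart in MDAMB468: it was at 69.5 ± 2.85 RPKM in MDAMB468, 66.7 ± 2.95 in HCC1806 and 72.1 ± 11.2 in MDAMB231, which the test did not separate, and at 112 ± 10.7 in BT549 (adjusted p 1.42e-05 against MDAMB231). ALDOA, PKM and GAPDH were lowest in MDAMB468 too, with highest-to-lowest ratios of 2.49 for ALDOA and 2.27 for PKM. GPI, which turns glucose 6-phosphate into fructose 6-phosphate, was lowest in MDAMB231 at 31.9 ± 2.20 RPKM and highest in HCC1806 at 53.2 ± 4.68.

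Paralogues divided several steps differently by line. Phosphofructokinase was mostly the platelet form PFKP in MDAMB231 (79.1 ± 0.870% of the summed RPKM of the 3 genes), HCC1806 (74.3 ± 2.14%) and BT549 (67.0 ± 1.90%). In MDAMB468 the liver form PFKL (48.3 ± 3.12%) and PFKP (48.8 ± 3.19%) were level, and the muscle form PFKM took 2.82 ± 0.339%, against 7.58 to 12.3% in the other lines. The low share of PFKM in MDAMB468 matched its level, 1.56 ± 0.135 RPKM against 7.78 to 9.57 (adjusted p 1.99e-15 against HCC1806, the next line). HK2, the inducible hexokinase, made up 47.0 ± 3.07% of the hexokinase pair in MDAMB231 and 43.6 ± 5.24% in BT549, and 29.2 ± 2.71% in HCC1806 and 27.2 ± 1.00% in MDAMB468. ENO2, the neuronal enolase, was 5.19 ± 0.179% of enolase in MDAMB231 and 0.905 to 1.21% elsewhere. ALDOC, the brain aldolase, stayed at or under 1.64% of aldolase in all 4 lines. These shares are descriptions, without a test.

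**Figure D2:**
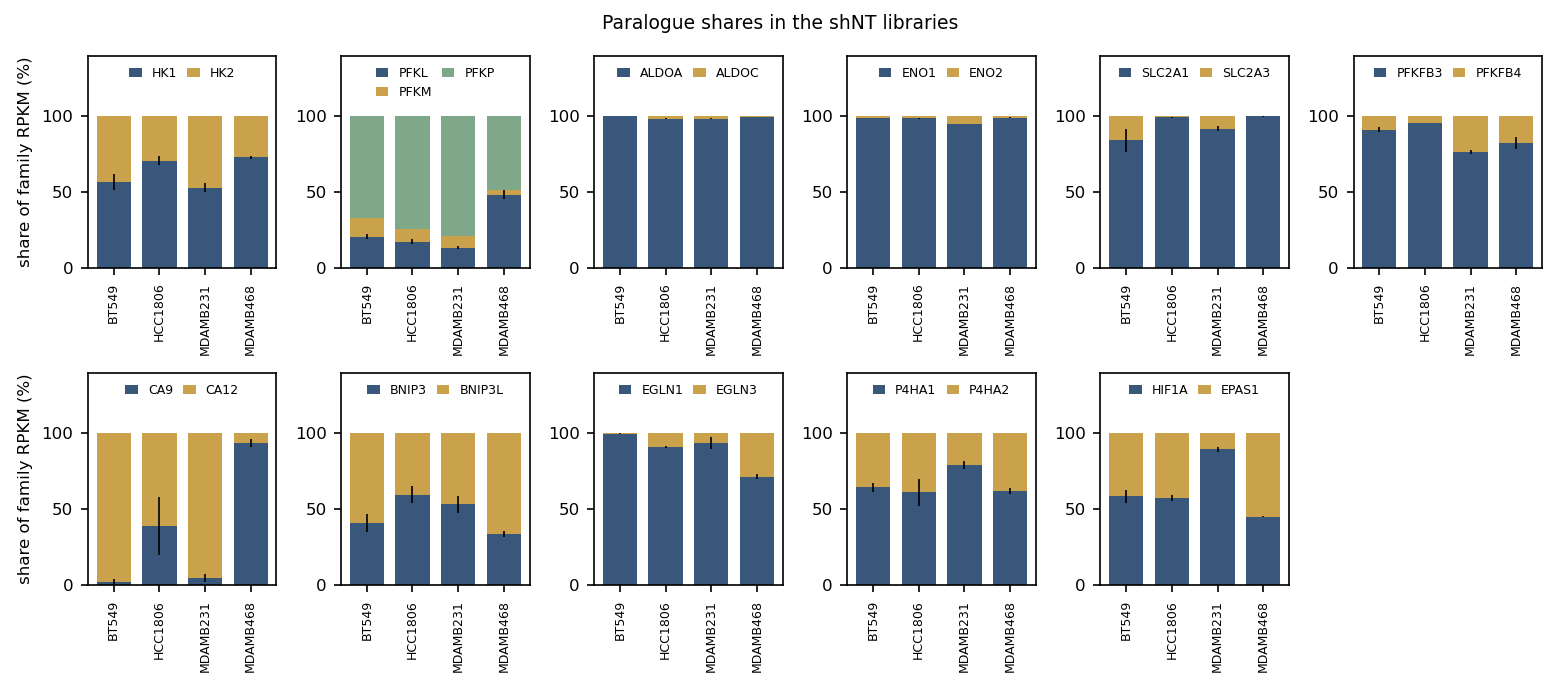
Share of each paralogue in the summed RPKM of its family (vertical axis, percent) in the shNT libraries of the 4 lines; bars are means of 3 libraries and error lines are the SD of the lowest segment. PFKL reaches 48.3% in MDAMB468, HIF1A 89.5% in MDAMB231 and CA9 93.9% in MDAMB468.

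The flux regulators were highest in different lines. PFKFB3, which makes a fructose bisphosphate that strongly activates phosphofructokinase, was at 26.5 ± 1.43 RPKM in HCC1806, 18.0 ± 1.27 in BT549, 18.1 ± 0.666 in MDAMB231 and 8.11 ± 0.710 in MDAMB468. PFKFB4, its paralogue, was at 5.51 ± 0.519 RPKM in MDAMB231, where it was 23.3 ± 1.24% of the pair, and at 1.26 to 1.75 RPKM elsewhere. PDK1, which blocks the entry of pyruvate into the citric acid cycle, lay between 1.53 and 2.57 RPKM and no neighbouring pair of lines passed. Of its 6 pairs of lines 3 did pass, among them MDAMB231 against MDAMB468 (edgeR adjusted p 0.000152).

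The factors themselves were present in all lines in unequal proportion. HIF1A was at 75.4 ± 1.29 RPKM in MDAMB231, above HCC1806 (47.2 ± 2.33) and BT549 (44.6 ± 1.70), which did not differ by the test (adjusted p 0.303), and at 27.7 ± 2.20 in MDAMB468 (adjusted p 1.23e-08 against BT549). EPAS1, which encodes the other HIF alpha subunit, was lowest in that line: 8.87 ± 1.55 RPKM in MDAMB231 and 31.9 to 35.3 in the other 3 lines, which the test did not separate at neighbouring ranks. HIF1A was thus 89.5 ± 1.78% of the pair in MDAMB231, 58.5 ± 4.09% in BT549, 57.2 ± 2.03% in HCC1806 and 45.3 ± 0.367% in MDAMB468. Transcript levels do not report the amount of these proteins, which is set by degradation.

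EGLN3, a hydroxylase that is itself a HIF target, had the widest range of all members. It was at 5.32 ± 0.377 RPKM in MDAMB468, 0.850 ± 0.0539 in HCC1806 and 0.564 ± 0.414 in MDAMB231, and in BT549 the 3 shNT libraries held 4, 6 and 0 reads. EGLN1, the main oxygen sensor of the family, varied less, from 8.38 ± 0.517 RPKM in MDAMB231 to 15.2 ± 0.998 in BT549, so that EGLN3 was 28.5 ± 1.66% of the pair in MDAMB468 and 0.0475 ± 0.0427% in BT549.

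The targets did not rank the lines in a common order. CA9, a carbonic anhydrase of the cell surface often used as a hypoxia marker, was at 5.28 ± 1.37 RPKM in MDAMB468, 0.539 ± 0.441 in HCC1806, 0.226 ± 0.105 in MDAMB231 and 0.0512 ± 0.0317 in BT549, where the libraries held 8, 2 and 4 reads. CA12, its relative, was instead lowest in MDAMB468, and ran from 4.52 ± 0.673 RPKM in MDAMB231 to 0.329 ± 0.122. NDRG1, a stress-induced gene, was at 32.1 ± 3.94 RPKM in HCC1806 and 26.2 ± 2.92 in MDAMB231, 1.75 ± 0.128 in MDAMB468 and 0.511 ± 0.0653 in BT549, and all 6 pairs of lines differed. The collagen prolyl hydroxylases P4HA1 and P4HA2 were highest in BT549 (38.1 ± 2.61 and 21.0 ± 1.30 RPKM) and lowest in MDAMB468 (5.32 ± 0.818 and 3.25 ± 0.454 RPKM). VEGFA, the vessel growth factor, was highest in MDAMB231 at 29.7 ± 6.90 RPKM, against 7.92 to 13.1 elsewhere. BNIP3 and BNIP3L, the mitophagy receptors, were highest in MDAMB231 as well (28.8 ± 3.42 and 25.4 ± 4.91 RPKM), although BNIP3L did not differ there from BT549 (adjusted p 0.907). ADM, the vasodilator peptide adrenomedullin, was lowest in MDAMB468 (2.80 ± 0.296 RPKM) and did not differ between neighbours among the other 3. ERO1A, an oxidase of the endoplasmic reticulum that forms disulfide bonds, was at 19.4 ± 1.25 RPKM in HCC1806 and 18.0 ± 1.11 in MDAMB231, which the test did not separate (adjusted p 0.116), at 7.87 ± 1.37 in BT549 and at 6.45 ± 1.05 in MDAMB468. KDM3A, a histone demethylase, stayed between 3.21 and 7.08 RPKM. BHLHE40, a transcriptional repressor, varied between replicates in MDAMB468, at 72.3 ± 40.7 RPKM, with the other lines at 26.3 to 34.2.

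The next comparison asks what ADAR1 knockdown does to these genes. Most of the 37 moved little: averaged over the 4 lines with equal weight, TPI1 and PGK1 fell, GPI, PFKFB4 and ERO1A rose, and the remaining 32 did not pass. That is 3 members called higher and 2 lower of 37, where 2.96% of all genes were called (1.26% higher and 1.7% lower). The median member changed by 0.06 on the log2 scale, beside 0.02 for all genes tested, and 73.0% of members against 55.0% of all genes had a value above 0. By line, 2 members were called in BT549 (both higher; background 0.473%, with 0.131% higher and 0.342% lower), none in HCC1806 (0.0468%), 3 in MDAMB231 (2 higher, 1 lower; background 2.01%, with 0.637% and 1.37%) and none in MDAMB468 (0.0375%), by edgeR's quasi-likelihood test with an adjusted p under 0.05. In HCC1806 and MDAMB468, 2 and 3 members had an unadjusted p under 0.05, as had 4.35% and 3.76% of all genes. DESeq2, which gives an adjusted p to part of the genes, also called none in either line. It called 0.199% of 20107 and 0.332% of 12658 such genes there. DESeq2 called 3 members in BT549 (1.84% of 15139 such genes), adding TPI1, and 4 in MDAMB231 (5.34% of 14725), adding NDRG1. In the average it called 6 (8.26% of 12658), adding ADM, and gave CA9 and ANKRD37 no adjusted p. In the fits of all 24 libraries the p-values use 1 estimate of spread per gene, shared by the 8 groups. A line's p-value is therefore not set by the spread in that line alone. The spread is between libraries of a group and not between separate hairpins.

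**Figure D3:**
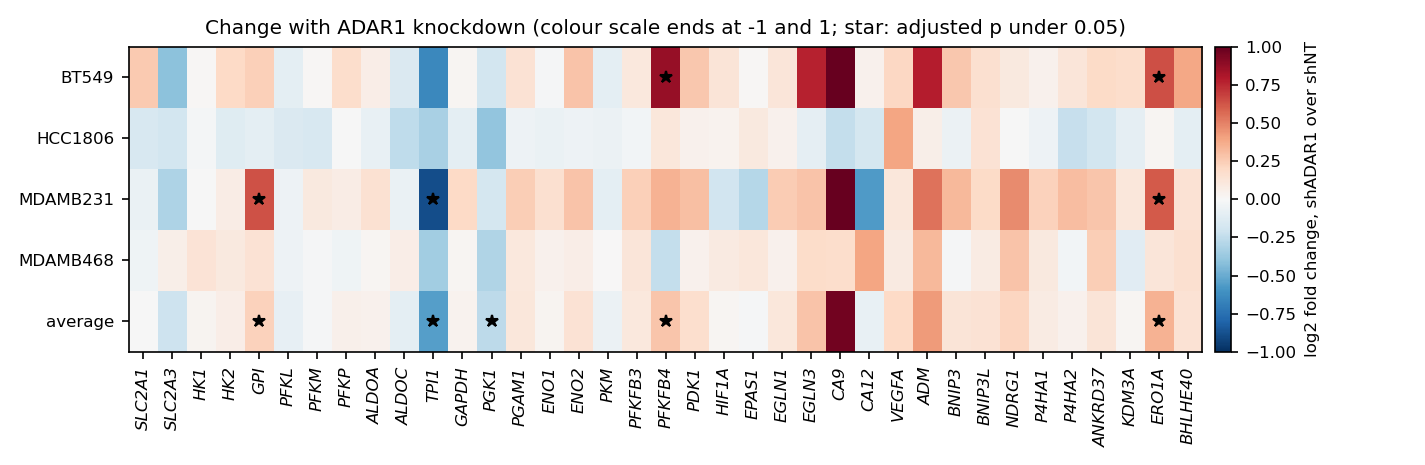
Change of each gene with ADAR1 knockdown in each line and in the average of the 4 lines, as the log2 fold change of shADAR1 over shNT (colour); stars mark an edgeR adjusted p under 0.05. TPI1 and PGK1 are blue in every row, while ERO1A is called in BT549, MDAMB231 and the average.

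TPI1 showed the largest fall. In MDAMB231 the shNT libraries had 410.1, 505 and 442 CPM and the shADAR1 libraries 158, 319 and 257 CPM. In BT549 they had 548, 526 and 384 CPM against 298, 334 and 300.4. All 3 knockdown libraries lay below all 3 control libraries in both lines. In HCC1806 the values were 455, 424 and 458 CPM in shNT and 343, 362 and 364 in shADAR1, and in MDAMB468 87.4, 84.9 and 83.9 CPM against 57.9, 70.7 and 72.8. TPI1 thus separated the arms in all 4 lines. Its log2 fold changes were -0.88 ± 0.165 (SE) in MDAMB231 (edgeR adjusted p 0.00293), -0.64 ± 0.164 in BT549 (0.0943), -0.32 ± 0.163 in HCC1806 (1.0) and -0.35 ± 0.165 in MDAMB468 (1.0). The average fell by 31.7%, a log2 fold change of -0.55 ± 0.0821 (edgeR adjusted p 0.000156), with the knockdown library lower in 12 of 12 same-numbered pairs. With the replicate number as a block, the fall in BT549 was called too (-0.63, edgeR adjusted p 0.000422), and DESeq2 gave an adjusted p of 0.00514 there. Fitted on the 6 MDAMB231 libraries alone, TPI1 kept its size (-0.89) but had an adjusted p of 0.103.

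PGK1, which makes the first ATP of the chain, fell by less and more evenly. Its libraries had 365, 403 and 379 CPM in shNT and 262, 322 and 289.6 in shADAR1 of HCC1806, and 340.4, 328 and 362 against 262, 283 and 294 in MDAMB468, without overlap in either line. In BT549 the values were 672, 681 and 534 CPM against 544, 590.1 and 527, and in MDAMB231 439, 378 and 345 against 403, 301 and 323, with overlap between the arms. The log2 fold changes were -0.39, -0.30, -0.18 and -0.18 in HCC1806, MDAMB468, BT549 and MDAMB231, none of which passed, and the average fell by 16.7% (-0.26 ± 0.0569, edgeR adjusted p 0.00815; lower in 12 of 12 same-numbered pairs). The blocked fit called PGK1 in HCC1806 (-0.40, edgeR adjusted p 0.000797) and MDAMB468 (-0.30, adjusted p 0.0115). PGAM1, ENO1 and PKM, which follow in the pathway, had averages of 0.11, 0.03 and -0.06 and did not pass.

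A short sequence in the 3′ UTR is shared by many genes that were called lower. The 7 bases ATCTTCA, named here because they were noticed in earlier work on these data, were present in the longest annotated 3′ UTR of 47.9% of the 361 genes called lower in the average and of 9.8% of the 254 called higher, and of 14.2% of the 16325 tested genes with such a UTR (GENCODE release 29 transcripts). Among the members, 5 of 37 held a copy (13.5%): SLC2A3, TPI1, PGK1, PDK1 and ERO1A. Both members that fell are in this list, with 1 copy each, and so is ERO1A, which rose. GTGGGCC, present in 26.3% of genes called lower and 10.5% of all, was found in CA12 alone among the members. Since the bases were picked from these same data, their share among the genes called lower is a description and not independent support. The UTR searched had 568 bases for TPI1 and 3469 for PGK1, beside a median of 1240 for the tested genes. UTR length was not compared between the genes called lower, those called higher and the rest. Whether the hairpin acted on TPI1 or PGK1 through these bases was not tested.

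GPI rose in MDAMB231. Its shNT libraries there had 257, 316 and 296 CPM and its shADAR1 libraries 448, 473 and 431 CPM, with a wide gap between the arms. The rise of 55.6% (log2 fold change 0.64 ± 0.0961, edgeR adjusted p 0.000302) was in the line that had the least GPI in shNT. In MDAMB468 the values were 377, 351 and 380.1 CPM against 394, 401 and 429, again without overlap, and in BT549 443, 422 and 334 against 488, 484 and 441. HCC1806 pointed the other way, at 518, 477 and 542 CPM in shNT and 493, 451 and 494 in shADAR1. The log2 fold changes were 0.14, 0.24 and -0.10 and did not pass. The average was 0.23 ± 0.0478 (edgeR adjusted p 0.00566), higher in 9 of 12 same-numbered pairs. With the block, BT549 passed as well (0.25, edgeR adjusted p 0.0122).

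PFKFB4 rose in BT549, from 11.1, 10.1 and 12.05 CPM to 20.4, 20.5 and 20.03 CPM. The 3 knockdown libraries lay within 1 CPM of each other and well above the controls, and the rise was 83.1% (log2 fold change 0.87 ± 0.136, edgeR adjusted p 0.00122). In MDAMB231, where PFKFB4 is highest, it went from 34.6, 35.5 and 30.2 CPM to 41.6, 41.3 and 44.7, which did not overlap but did not pass (0.35, adjusted p 0.259; with the block, edgeR adjusted p 0.00964). HCC1806 had 8.14, 8.90 and 7.49 CPM in shNT and 9.15, 9.69 and 7.80 in shADAR1, and MDAMB468 had 7.50, 9.16 and 12.01 against 7.34, 8.22 and 8.83, both with overlap. The average of 0.28 ± 0.0685 (edgeR adjusted p 0.0250; higher in 9 of 12 pairs) was lost on leaving out any of 6 libraries of the 24, with adjusted p up to 0.0613. Those libraries were shNT replicate 2 of BT549, shNT replicate 3 of HCC1806, shADAR1 and shNT replicates 3 of MDAMB231, and shADAR1 replicate 3 and shNT replicate 2 of MDAMB468. PFKFB3 did not pass in any line without the block (averaged log2 fold change 0.11, adjusted p 0.366); the blocked fit called it in MDAMB231 (0.23, edgeR adjusted p 0.0120) and in the average (0.0163). In MDAMB231 its shADAR1 libraries, at 122, 107 and 119 CPM, stood above the shNT libraries at 98.8, 100.1 and 96.6 CPM. The arms of PFKFB3 overlapped in BT549 (110.1, 108 and 90.2 CPM in shNT, 118, 113 and 99.5 in shADAR1), in HCC1806 (153, 167 and 143 against 155, 164 and 134) and in MDAMB468 (44.8, 36.2 and 40.9 against 43.1, 42.3 and 46.8). In BT549 the share of PFKFB4 in the pair was 8.93% in shNT and 14.2% in shADAR1.

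ERO1A rose in BT549 and MDAMB231. In BT549 it went from 54.7, 59.2 and 70.7 CPM to 93.6, 98.5 and 97.0 CPM (56.7% higher, log2 fold change 0.65 ± 0.106, edgeR adjusted p 0.00186). In MDAMB231 it went from 135, 129 and 141 CPM to 200.3, 195 and 226 CPM (52.9% higher, 0.61 ± 0.106, edgeR adjusted p 0.00130). No knockdown library overlapped a control library in either line. HCC1806, whose level was the highest at the start, had 167, 151 and 146 CPM against 161, 156 and 153, and MDAMB468 38.4, 42.3 and 52.5 against 52.9, 45.0 and 47.5, with log2 fold changes of 0.02 and 0.12. The average rose by 27.5% (0.35 ± 0.0527, edgeR adjusted p 0.00017; higher in 10 of 12 same-numbered pairs).

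**Figure D4:**
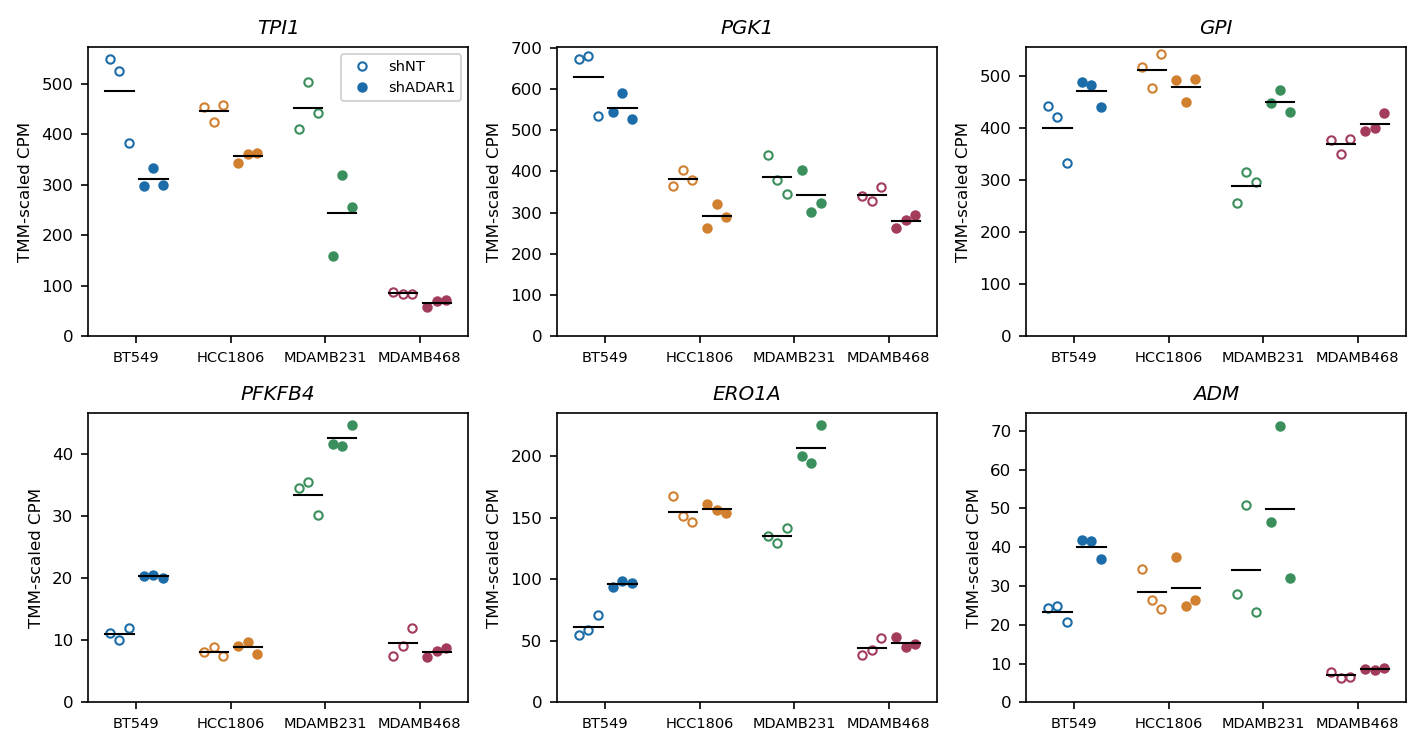
TMM-scaled CPM (vertical axis, from 0) of TPI1, PGK1, GPI, PFKFB4, ERO1A and ADM in each of the 24 libraries, open circles for shNT and filled circles for shADAR1, with bars at the mean of 3. The arms of TPI1 are apart in all 4 lines, GPI is apart in MDAMB231 and MDAMB468, and PFKFB4 and ERO1A are apart in BT549 and MDAMB231.

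ADM came next to the threshold. In BT549 its libraries had 24.3, 24.9 and 20.7 CPM in shNT and 41.9, 41.6 and 37.0 in shADAR1, without overlap. In MDAMB231 same-numbered libraries moved together, from 27.9, 51.0 and 23.4 CPM to 46.5, 71.4 and 32.0, so that the arms overlapped although each knockdown library exceeded its own number. MDAMB468 had 7.92, 6.32 and 6.63 CPM against 8.63, 8.43 and 8.93, and HCC1806 34.5, 26.4 and 24.2 against 37.4, 24.8 and 26.3. The average log2 fold change was 0.43 ± 0.125 (edgeR adjusted p 0.0701; higher in 11 of 12 pairs). With the replicate block it was 0.43 with an edgeR adjusted p of 1.03e-07, and BT549 and MDAMB231 passed separately (edgeR adjusted p 7.37e-07 and 4.82e-05), while DESeq2 without the block gave 0.0155 for the average.

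NDRG1 was 38.9% higher in MDAMB231, at 398, 301 and 364 CPM against 274, 262 and 230.2, and missed the threshold narrowly (log2 fold change 0.47 ± 0.126, edgeR adjusted p 0.0510; DESeq2 0.0302; with the block 0.000237). In MDAMB468 it had 20.2, 18.4 and 18.6 CPM in shADAR1 and 16.8, 15.8 and 14.5 in shNT, and the arms did not overlap. The arms overlapped in HCC1806, at 343, 296 and 361 CPM in shNT and 295, 294 and 406 in shADAR1, and in BT549, at 5.59, 4.56 and 5.47 CPM against 5.12, 5.29 and 6.28.

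VEGFA was the member with the largest value above 0 in HCC1806. Its libraries there had 202, 204 and 195 CPM in shNT and 276, 259.9 and 255 in shADAR1, without overlap, for a log2 fold change of 0.39 ± 0.144 that did not pass (adjusted p 0.902). The blocked fit called it (again 0.39, edgeR adjusted p 0.00049). In BT549 VEGFA had 116, 109 and 129.9 CPM against 143, 132 and 136, in MDAMB231 453, 323 and 501 against 494, 331 and 558, and in MDAMB468 131, 112 and 132 against 130.2, 131 and 138. The knockdown library was higher in 11 of 12 same-numbered pairs, and the average was 0.20 ± 0.0722 (adjusted p 0.173; blocked 2.77e-05), while the block also called VEGFA in BT549 (0.21, edgeR adjusted p 0.0290).

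EGLN1 in MDAMB231 (blocked edgeR adjusted p 0.00487) had 56.8, 66.7 and 58.3 CPM in shNT and 69.7, 79.5 and 67.7 in shADAR1, and its average was 0.11 ± 0.0422 (adjusted p 0.201; blocked 0.00673). In BT549 the 3 EGLN1 libraries of shADAR1, at 128, 119.6 and 127 CPM, also lay above those of shNT, at 117, 110.3 and 118. The EGLN1 arms overlapped in HCC1806 (71.2, 70.8 and 60.4 CPM in shNT, 71.7, 70.3 and 66.2 in shADAR1) and MDAMB468 (89.4, 85.2 and 91.0 against 89.9, 96.4 and 87.1). BNIP3 had 139, 156 and 121 CPM against 184, 168 and 169 in MDAMB231, with an average over the lines of 0.13 ± 0.0644 (adjusted p 0.405; blocked 0.0304, and 0.00652 in MDAMB231 and 0.0425 in BT549 alone). Its arms overlapped in BT549 (86.2, 90.2 and 70.6 CPM in shNT, 94.7, 112 and 90.01 in shADAR1), HCC1806 (59.4, 49.9 and 41.8 against 51.9, 50.7 and 42.2) and MDAMB468 (21.7, 21.4 and 24.0 against 24.1, 23.0 and 19.8). CA9 had the largest fitted change of all, 2.94 ± 0.898 on the log2 scale in BT549 (adjusted p 0.236; blocked 2.68 with an edgeR adjusted p of 0.0156), and it rested on 1 library. Its BT549 counts were 8, 2 and 4 reads in shNT and 5, 153 and 9 in shADAR1, so that shADAR1 replicate 2 stood alone. Without that library the log2 fold change in BT549 was 0.44 (edgeR adjusted p 1.0) and the average 0.35 (0.797). In MDAMB231 CA9 was at 0.185, 0.557 and 0.398 CPM in shNT and 0.719, 1.08 and 0.727 in shADAR1, a separation of the arms at low counts. CA9 overlapped between the arms in HCC1806 (1.85, 0.374 and 0.637 CPM in shNT, 1.29, 0.284 and 0.690 in shADAR1) and in MDAMB468 (10.5, 7.28 and 6.37 against 9.95, 8.88 and 8.38).

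The other members were not called without the block, and the blocked fit called several of them in BT549 or MDAMB231. HIF1A and EPAS1 had averages of 0.02 and -0.01, with -0.19 and -0.29 in MDAMB231, both called lower there in the blocked fit alone (edgeR adjusted p 0.0213 and 0.00816). Of the transporters, SLC2A1 had an average of 0.00 and a range from -0.16 in HCC1806 to 0.26 in BT549, and SLC2A3 had -0.21. With the block, SLC2A1 was called higher in BT549 (0.28, edgeR adjusted p 0.0147), and SLC2A3 lower in BT549 (-0.42, adjusted p 0.00722) and MDAMB231 (-0.30, adjusted p 0.0384). The enzymes HK1, HK2, PFKL, PFKM, PFKP, ALDOA, ALDOC, GAPDH, PGAM1, ENO1, ENO2 and PKM had averages between -0.10 and 0.15. The blocked fit called HK2 (0.20, edgeR adjusted p 0.0204), PFKP (0.18, 0.0280) and ENO2 (0.28, 0.0285) higher in BT549, and PGAM1 (0.25, 0.00770), ENO2 (0.29, 0.0120) and GAPDH (0.20, 0.0496) higher in MDAMB231. The averages of PDK1, EGLN3, BNIP3L, P4HA1, ANKRD37, KDM3A and BHLHE40 were 0.16, 0.29 ± 0.253, 0.15, 0.08, 0.13, 0.02 and 0.15, and the block called PDK1 higher in MDAMB231 (0.31, edgeR adjusted p 0.0148) and BHLHE40 in BT549 (0.39, edgeR adjusted p 0.000979). In the average the block called PGAM1 (edgeR adjusted p 0.0128), ENO2 (0.0124), PDK1 (0.00855), CA9 (0.0145), BNIP3L (0.00974), NDRG1 (0.00206) and BHLHE40 (0.00168), all higher with knockdown. CA12 and P4HA2 had averages of -0.08 and 0.04 that combine values of both signs. CA12 had 36.9, 29.9 and 31.4 CPM in shNT and 15.4, 20.9 and 29.4 in shADAR1 of MDAMB231, without overlap, for a log2 fold change of -0.57 (adjusted p 0.602; blocked 0.0106), and 0.40 in MDAMB468 (adjusted p 1.0). P4HA2 had 48.0, 43.0 and 59.5 CPM in shNT and 64.9, 50.9 and 70.9 in shADAR1 of MDAMB231, with overlap (0.31, adjusted p 0.561; blocked 0.00125), and -0.23 in HCC1806 (adjusted p 1.0; blocked 0.0298). The summed RPKM of the 15 enzymes was 2443 ± 144 in shADAR1 and 2500 ± 354 in shNT of BT549, 2347 ± 52.2 and 2487 ± 106 in HCC1806, 2490 ± 101 and 2358 ± 157 in MDAMB231, and 1333 ± 26.0 and 1342 ± 47.1 in MDAMB468. The arms' ranges overlapped in all 4 lines, without a test.

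The signs of the members' values are given here by line as a description, without a test. The members were measured in the same libraries and are not replicates of a line's response. In BT549, 30 of 37 members had a value above 0 (27 under relative-log scaling) and the median was 0.13 (all genes 52.7% and 0.01). In MDAMB231 it was 26 of 37 with a median of 0.16 (49.7% and 0.00), and in MDAMB468 27 of 37 with 0.07 (52.3% and 0.01). In HCC1806, 9 of 37 were above 0 with a median of -0.07 (50.8% and 0.00), and all 15 enzymes lay below 0 under TMM, relative-log and upper-quartile scaling. Of these, PFKP was at -0.00059 under TMM, in effect unchanged, and its sign turned without the filter on low counts. All 7 members of the group of other targets (NDRG1, P4HA1, P4HA2, ANKRD37, KDM3A, ERO1A and BHLHE40) were above 0 in BT549 and in MDAMB231, 5 of 7 in MDAMB468 and 1 of 7 in HCC1806. BT549 and MDAMB231 gave the same sign for 31 of 37 members (83.8%; 25 both above and 6 both below 0), beside 57.6% of all genes. MDAMB468 shared the sign of 70.3% of members with BT549 (53.2% of all genes) and of 64.9% with MDAMB231 (52.4%). HCC1806 shared the sign of 43.2% with BT549 (52.9% of all genes), 43.2% with MDAMB231 (51.2%) and 45.9% with MDAMB468 (55.3%).

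Arms that did not overlap were also counted, without a model. In BT549, 8 members were higher and 1 lower in every knockdown library than in every control library, while 8.24% of all genes were higher and 6.43% lower in this way. In MDAMB231 it was 10 higher and 4 lower (7.19% and 7.01%), in MDAMB468 5 and 2 (6.69% and 4.3%), and in HCC1806 1 and 4 (4.38% and 3.2%).

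Whether the response of a member differed between lines was tested directly by the joint interaction of knockdown and line. No member passed (0.0234% of all genes did), and 3 had an unadjusted p under 0.05 (4.44% of all genes did): PFKFB4 (edgeR adjusted p 0.109), GPI (0.136) and ERO1A (0.167). DESeq2 called these 3, and 0.835% of the 14725 genes to which it gave an adjusted p (adjusted p 0.000313, 0.00025 and 0.00734). With the replicate block, 11 members passed against 4.69% of all genes: GPI (edgeR adjusted p 0.000141), PFKFB4 (0.000293), ERO1A (0.00137), ADM (0.00159), P4HA2 (0.00228), BHLHE40 (0.0232), SLC2A1 (0.0285), TPI1 (0.0316), EPAS1 (0.0360), NDRG1 (0.0388) and HIF1A (0.0424). Without the block, edgeR called PFKFB4 and GPI when each library had to hold 10 counts or more, and did not call ERO1A. The share of all genes called with that filter is not given here.

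Same-numbered libraries of the 2 arms moved together in 3 of the 4 lines, and taking the number as a block raised the counts. The blocked fit called 14 members in BT549 (12 higher, 2 lower; background 5.14%, with 2.48% and 2.66%), 3 in HCC1806 (1 higher, 2 lower; 2.1%, with 1.47% and 0.632%), 18 in MDAMB231 (13 higher, 5 lower; 11.4%, with 5.08% and 6.32%) and 1 in MDAMB468 (lower; 1.66%, with 0.651% lower). In the average it called 17 members, 15 higher and 2 lower, where 13.2% of all genes were called (7.25% higher, 5.96% lower). The 2 lower were again TPI1 and PGK1. The 12 members that were called higher with the block and not without it were ADM, VEGFA, BHLHE40, NDRG1, EGLN1, PDK1, BNIP3L, ENO2, PGAM1, CA9, PFKFB3 and BNIP3, with log2 changes of 0.11 to 0.43 except for CA9 at 0.92.

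Genes around the pathway, from lists that were chosen with earlier results of these data known, showed few calls in the average, where 2.96% of all genes were called and 12.8% had an unadjusted p under 0.05. Of 23 tested further glycolysis genes (27 listed), 1 passed, SLC16A3, which encodes the lactate exporter MCT4. SLC16A3 had 178 to 203 CPM in shNT and 358 to 421 CPM in shADAR1 of MDAMB231 (log2 fold change 1.05, edgeR adjusted p 4.76e-06), and changes of 0.07, 0.04 and -0.07 in BT549, HCC1806 and MDAMB468. None of the 11 genes of pyruvate entry into mitochondria passed, though 6 had an unadjusted p under 0.05. Of 14 genes of the HIF machinery, SIAH2, a ubiquitin ligase acting on the EGLN proteins, fell (-0.33, edgeR adjusted p 0.0217), a call lost without shADAR1 replicate 3 or shNT replicate 2 of MDAMB231 or shADAR1 replicate 1 of MDAMB468 (adjusted p 0.0508 to 0.0556). Of 29 further HIF targets, DDIT4, an inhibitor of mTORC1, rose (0.45, edgeR adjusted p 0.00442) and LOXL2, a lysyl oxidase, fell (-0.59, edgeR adjusted p 4.74e-05). Of 5 glucose-sensing genes, MLX, the partner of the glucose-responsive factors MLXIP and MLXIPL, fell in all 4 lines (-1.10, -0.60, -1.15 and -0.58; edgeR adjusted p at most 0.0322). The 3′ UTR of MLX holds 2 copies of ATCTTCA and 2 of GTGGGCC. Those of SIAH2 and LOXL2, which also fell, and of DDIT4 hold neither, and that of SLC16A3, which rose, holds 1 copy of GTGGGCC. The call of MLX in MDAMB468 was lost without any 1 of that line's 6 libraries (adjusted p up to 0.222). In HCC1806 it was lost without shADAR1 replicate 1 or 3 or shNT replicate 1 or 2 (up to 0.146) and in the fit on that line's libraries alone (0.822).

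Some limits apply to single members. How reads that match several places were counted, and whether counting used strand, is not given in the sources used here, and GAPDH, PGK1, TPI1, ENO1 and other glycolytic genes have processed pseudogene copies in the genome. The annotated span of 18 members overlaps another listed gene, which for TPI1 is SPSB2 on the other strand.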

How the data were processed

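The members, and all gene lists, were chosen with earlier results of these data known. Each library's deposited file gives, per the file headers, a whole-number read count per gene, which was the unit tested. It also gives the authors' CPM and the authors' RPKM, per the file headers, which equal the count scaled to the library total and, for RPKM, to gene length. The submitters' processing notes name bcl2fastq, STAR, Subread, featureCounts and edgeR. Build, annotation, strand setting and the handling of reads with several matches are not given in the sources used here; symbols came from the identifiers, of which 33972 of 37416 matched a gene name, and 31354 genes have the start and end of GENCODE release 29. Counts were fitted with edgeR 4.0.16 (R 4.3.3): filterByExpr, TMM, 8 group means and quasi-likelihood tests, adjusted by Benjamini-Hochberg over 21352 genes, with 0.05 as the threshold. CPM in the text is TMM-scaled. The SE printed with an edgeR log2 fold change is the size of that change divided by the square root of its F statistic. DESeq2 1.42.0 was an alternative, beside other scalings and filters, a replicate block, fits on the 6 libraries of a line and leaving out each library. The script was tested on simulated data.

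Replicate numbers come from the sample titles. Deviations of same-numbered libraries of the 2 arms correlated at 0.139 to 0.25 in BT549, 0.242 to 0.443 in HCC1806 and 0.149 to 0.348 in MDAMB231, above 0.1 for each number, and at 0.0651 to 0.166 in MDAMB468; the blocked values are therefore printed beside the members whose call they change. No 2 libraries of a group agreed within sampling noise. Members named with every library's value were those called in any knockdown test, filled to 12 by the smallest p in the average; the 10 members with the widest range in shNT were also named, as were up to 3 called genes per further list, ADAR and SLC16A3. CA9 counts and the UTR sequences were singled out after values were seen. Promoter sequences are RefSeq's. Intervals for counting error are not given because differences between replicates exceed it.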

Additional observations from a re-analysis of the deposited data

Results flagged for a closer look

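The change of SLC16A3, the lactate exporter, differed between the lines (joint interaction F 20.5, edgeR adjusted p 0.0140), with 1.05 on the log2 scale in MDAMB231 and -0.07 to 0.07 elsewhere. Without shADAR1 replicate 1 of MDAMB231 the adjusted p was 0.0516, and without shNT replicate 2 of MDAMB231 it was 0.0705. The cause was not tested.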

How the results depend on the processing

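Members called under the replicate block numbered 14 in BT549, 3 in HCC1806, 18 in MDAMB231, 1 in MDAMB468, 17 in the average and 11 in the interaction, against 2, 0, 3, 0, 5 and 0 without it. The interaction gave 3 with DESeq2 and 2 (PFKFB4 and GPI) when each library had to hold 10 counts or more. For the knockdown effect in BT549, a fit on that line's 6 libraries alone called 5 members (4 higher, 1 lower). The share of all genes called is not given here for that fit or for the filter at 10 counts. The cause of these differences was not tested. Leaving out each library gave 2 to 3 calls in BT549, 0 to 0 in HCC1806 and MDAMB468, 3 to 4 in MDAMB231, 4 to 7 in the average and 0 to 1 in the interaction (1 without shNT replicate 1 of MDAMB468). At baseline it gave 34 to 36 members in the joint test and 160 to 169 of 222 pairs; a block across lines gave 36 and 171. The calls of GPI, TPI1, PGK1 and ERO1A in the average held in all 24 such fits, and that of PFKFB4 in 18. No called value turned its direction; with every library kept, 20 of 1241 member values had another sign than reported, none larger than 0.06 on the log2 scale. No paralogue share moved by more than 1 SD under TMM-scaled counts per kilobase or without a replicate, but neither check could have failed. A share is a ratio within a library, so the scaling cancels. Leaving out 1 of 3 libraries cannot move their mean by 1 SD. With 3 libraries a group, a change that missed the threshold is not shown to be absent.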
